A study of Mus musculus with 8 samples.

Results

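The interferon-stimulated genes were examined as a group of 39 genes, of 41 listed by symbol, in mouse 3T3-L1 adipocytes. A listed gene was a member where its counts, summed over the 8 libraries, reached 10. In the whole file, 17433 of 43629 genes reached that level. The listed genes left out were Oas3 with 6 counts and Oasl1 with 1 count, both in the oligoadenylate synthetase family, and the members just above the limit were Oas1a with 48 counts, Cmpk2 with 58, Rsad2 with 78 and Mx1 with 104. The members were divided by role into 4 sensors of foreign nucleic acid, 3 transcription factors and 32 effectors.

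3T3-L1 is a clonal line of mouse pre-adipocytes that becomes adipocytes under a hormone mixture, here insulin, dexamethasone, isobutylmethylxanthine and rosiglitazone. On day 8 of differentiation the cultures were left untreated, or received for 24 h A66 (2 µM), a small-molecule inhibitor selective for the p110α catalytic subunit of PI3K, or palmitate (0.5 mM, bound to bovine serum albumin), a saturated fatty acid, or palmitate together with A66. Each of the 4 groups held 2 libraries of oligo(dT)-selected RNA, described in the study's methods as biological repeats for the cells with and without A66. Nothing says so of the palmitate groups, where p-values measure the spread between these libraries, which may be technical. Those methods give another dose of A66 and a DMSO vehicle, whereas the labels name the control cultures as untreated. No group is labelled as given albumin alone, so that palmitate and the albumin it was bound to cannot be told apart. No genotype differed between groups, and the labels name no interferon or other inducer for any of them.

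Type I interferons are secreted proteins that bind a receptor made of IFNAR1 and IFNAR2, which activates the kinases JAK1 and TYK2. These phosphorylate STAT proteins, among them STAT2, which joins IRF9 in the complex ISGF3, and this complex binds the interferon-stimulated response element in the promoters of its target genes. Many targets sense viral nucleic acid, block viral translation or replication, or regulate the response itself, and many cells keep a low level of them without infection.

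Library totals lay between 42247091 and 57529803 counts, so that 3 counts, taken as the detection floor, stood at 0.0521 to 0.0710 CPM (counts relative to library size), a floor that covers counting error only. CPM values are scaled by the TMM method of edgeR. The spread between replicates exceeded counting noise, as the chi-square per gene averaged 6.15 to 8.99 in the 4 groups where counting alone gives about 1, and 10.5% to 11.8% of the counts in each library came from mitochondrial genes. The adipocyte markers were detected, 9 of 9, with a summed level of 7919 to 9746 CPM across the libraries. Of 8 preadipocyte or fibroblast markers, 7 reached 10 counts, at a summed level of 3871 to 4670 CPM. Of 8 macrophage markers, 3 (Csf1r, Cd68 and Lyz2) reached 10 counts, at a summed level of 5.82 to 8.79 CPM, whereas Adgre1 and C1qa were at 0 counts in every library and Ptprc held 1 count in all. Of 2 markers of plasmacytoid dendritic cells, Siglech was at 0 counts, and Bst2, which is also a member, held 7206. Of 3 lymphocyte markers, Cd3e was at 0 counts, and Cd79a and Nkg7 held 12 and 13 counts in all. Of 4 endothelial markers, 2 reached 10 counts, Pecam1 with 260 and Tek with 179. A66 acts on a protein, so that no transcript shows which cultures received it. Of 6 genes of insulin and PI3K signalling tested as a check (Irs2, Insr, Pik3ip1, Srebf1, Pck1 and Pik3ca), 0 differed between A66 and untreated cells at an adjusted p under 0.05, with 1, Irs2, at an unadjusted p under 0.05. With palmitate plus A66 against palmitate, 1 of the 6, Pik3ip1, was higher (log2 fold change 0.19, SE 0.05, adjusted p = 0.0499). At an unadjusted p under 0.05, Pck1 was also lower (-0.37, adjusted p = 0.0799) and Pik3ca higher (0.11, adjusted p = 0.230). With palmitate plus A66 against A66, Pik3ip1 was higher too (0.21, adjusted p = 0.0284), and Pck1 was lower (-0.56, adjusted p = 0.00442). All directions given here rest on the labels.

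Sequence before the genes is shown because a response element occurs there in some of the listed genes. Promoters were taken from RefSeq on GRCm38.p6, from 250 bases before to 50 bases after each gene's start, and 32 of the 41 listed genes had an entry. The letters GAAA, any 2 bases and GAAA again, a core of the interferon-stimulated response element, were found on either strand in 16 of the 32 (50%), against 946 of 27025 promoters in the whole table (3.5%). TTCNNNGAA, the gamma-activated site bound by STAT dimers, was found in 6 of 32 (18.8%), against 8.36% of all promoters. The 6 promoters printed below belong to the called members with the smallest p in any comparison among those with an entry. They lie at chr5:114896684-114896983 (plus strand) for Oasl2, chr3:151749861-151750160 (minus strand) for Ifi44, chr4:40239776-40240075 (minus strand) for Ddx58, chr19:34640639-34640938 (plus strand) for Ifit1, chr8:61927837-61928136 (plus strand) for Ddx60 and chr11:118401910-118402209 (minus strand) for Lgals3bp. Each is written 5′ to 3′ on the gene's strand, with matches to the response element core, on either strand, in capitals.
Oasl2: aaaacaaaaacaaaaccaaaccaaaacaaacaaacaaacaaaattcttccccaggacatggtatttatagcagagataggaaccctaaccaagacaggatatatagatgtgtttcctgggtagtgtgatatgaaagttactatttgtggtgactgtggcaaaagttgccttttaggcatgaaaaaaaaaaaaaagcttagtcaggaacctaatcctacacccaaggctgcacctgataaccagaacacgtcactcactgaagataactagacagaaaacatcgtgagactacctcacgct
Ifi44: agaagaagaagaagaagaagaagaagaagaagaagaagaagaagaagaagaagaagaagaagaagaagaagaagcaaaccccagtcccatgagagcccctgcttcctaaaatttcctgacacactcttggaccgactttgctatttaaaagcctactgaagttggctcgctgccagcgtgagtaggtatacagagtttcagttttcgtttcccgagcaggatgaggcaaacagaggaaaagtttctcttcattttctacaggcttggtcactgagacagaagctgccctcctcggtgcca
Ddx58: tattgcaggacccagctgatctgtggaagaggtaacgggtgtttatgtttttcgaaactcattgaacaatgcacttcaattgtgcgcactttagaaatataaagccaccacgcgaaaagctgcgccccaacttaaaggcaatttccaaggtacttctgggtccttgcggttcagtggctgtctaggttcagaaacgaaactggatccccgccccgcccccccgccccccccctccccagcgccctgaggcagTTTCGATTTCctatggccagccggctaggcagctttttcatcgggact
Ifit1: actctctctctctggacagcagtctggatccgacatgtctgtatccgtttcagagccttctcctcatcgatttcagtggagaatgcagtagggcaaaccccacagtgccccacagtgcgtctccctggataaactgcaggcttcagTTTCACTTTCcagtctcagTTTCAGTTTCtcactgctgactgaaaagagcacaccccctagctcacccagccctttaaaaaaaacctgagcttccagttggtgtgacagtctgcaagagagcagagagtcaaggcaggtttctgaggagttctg
Ddx60: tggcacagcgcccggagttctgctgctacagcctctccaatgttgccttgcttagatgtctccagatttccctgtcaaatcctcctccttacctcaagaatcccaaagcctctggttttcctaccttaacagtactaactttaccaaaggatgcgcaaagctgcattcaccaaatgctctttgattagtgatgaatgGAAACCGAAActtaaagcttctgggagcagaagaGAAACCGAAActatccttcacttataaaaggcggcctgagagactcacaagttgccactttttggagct
Lgals3bp: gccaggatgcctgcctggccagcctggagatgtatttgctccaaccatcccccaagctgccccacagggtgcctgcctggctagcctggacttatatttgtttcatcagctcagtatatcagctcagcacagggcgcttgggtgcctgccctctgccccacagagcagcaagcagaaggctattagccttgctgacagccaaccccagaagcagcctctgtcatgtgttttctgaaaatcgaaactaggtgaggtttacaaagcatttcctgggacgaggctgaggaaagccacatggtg
Ifit1 and Ddx60 held 2 matches each and Ddx58 held 1, which began 2 bases after its start. These letters were not found in the windows of Oasl2, Ifi44 and Lgals3bp. For 7 further members, a window of 30 bases around the match that came first in the promoter shows the letters in their context, again with the matches in capitals. The windows lie at chr19:34583363-34583392 (plus strand) for Ifit3, chr4:156200871-156200900 (minus strand) for Isg15, chr3:142559992-142560021 (plus strand) for Gbp3, chr17:78882535-78882564 (minus strand) for Eif2ak2, chr10:128270266-128270295 (plus strand) for Stat2, chr19:34607759-34607788 (plus strand) for Ifit3b and chr7:104465210-104465239 (minus strand) for Trim30a.
Ifit3: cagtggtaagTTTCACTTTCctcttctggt
Isg15: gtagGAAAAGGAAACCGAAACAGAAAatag
Gbp3: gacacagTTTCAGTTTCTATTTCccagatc
Eif2ak2: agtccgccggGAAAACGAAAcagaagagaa
Stat2: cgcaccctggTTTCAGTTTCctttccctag
Ifit3b: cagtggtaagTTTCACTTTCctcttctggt
Trim30a: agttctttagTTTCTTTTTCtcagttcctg
The windows of Ifit3 and Ifit3b hold the same letters, and Isg15 holds 3 overlapping matches. A match is a description of the sequence, not evidence that a factor was bound. The values of members with and without the core are set side by side here with no test. With palmitate plus A66 against palmitate, 10 of 14 tested members with the core were lower, at a median log2 fold change of -0.57, and 10 of 15 without it were lower and 1 higher, at a median of -0.48, where 1.84% of all genes were lower and 0.973% higher. With palmitate against untreated cells, 2 of 14 with the core were higher, at a median of 0.15. Without it 0 of 15 were, at a median of 0.05, where 0.631% of all genes were higher. With A66 against untreated cells, 2 of 14 with the core were lower (median -0.25) and 4 of 14 without it (-0.28), where 0.77% of all genes were lower. With palmitate plus A66 against A66, 0 of 14 with the core were lower (-0.10) and 1 of 15 without it (-0.11), where 1.27% of all genes were lower. Cmpk2, in the set without the core, had enough counts for a test only with the palmitate libraries included. The differences between these sets were not tested.

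The first comparison asked how A66 alone changed these genes. The sensors Ddx58 and Dhx58, the transcription factor Irf9 and the effectors Eif2ak2, Ifi44, Xaf1 and Lgals3bp were lower with A66. The largest of these differences was that of Ifi44, at a log2 fold change of -1.63, and the smallest was that of Eif2ak2, at -0.23. With edgeR's quasi-likelihood test and Benjamini-Hochberg adjustment over 14158 genes, 7 of 36 tested members were lower and 0 were higher, where 0.77% of all genes tested were lower and 1.07% were higher. Oas1a, Mx1 and Cmpk2 had too few counts to be tested in these 4 libraries. At an unadjusted p under 0.05, 23 members were lower (6.24% of all genes) and 0 were higher (6.57%), and DESeq2 gave 2 lower and 0 higher with no adjusted p for some members. In the fit, 31 of 36 had a fitted value below 0, against 50.4% of all genes tested. The median log2 fold change of the tested members was -0.31, beside -0.0011 for all genes. Ranges of A66 and untreated libraries did not overlap, with A66 lower, for 26 members (22.3% of all genes), and with A66 higher for 3 (20.3%). The list was drawn up with results of these libraries known, so that these counts are not independent evidence of a direction. Leaving out 1 library moved the count to 4 (without untreated replicate 1), 16 (without untreated replicate 2), 2 (without A66 replicate 1) or 3 (without A66 replicate 2), and only Ifi44 and Lgals3bp, of the 7, passed in each of these 4 fits. In bulk RNA, fewer cells that use a gene and less of its RNA per cell cannot be told apart.

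The second comparison asked what palmitate did to the same genes in the absence of A66. Ifit3 and Ifit3b, neighbouring genes of the IFIT family, were higher with palmitate, at log2 fold changes of 0.68 and 0.77. In the edgeR fit on all 8 libraries, 2 of 38 tested members were higher and 0 lower, where 0.631% of 14587 genes were higher and 0.542% lower. At an unadjusted p under 0.05, 11 members were higher (6.42% of all genes) and 1, Samhd1, was lower (5.6%). Fitted values were above 0 in 31 of 38 members, against 50.2% of all genes, with a median log2 fold change of 0.13 beside 0.00053 for all genes. Mx1 and Cmpk2 passed the filter on low counts only where the palmitate libraries were included, and without them 29 of 36 were above 0, with a median of 0.12. Both palmitate libraries were above both untreated ones for 15 members (20.4% of all genes) and below them for 4 (20.2%). The call of Ifit3b was lost without untreated replicate 2 and without palmitate replicate 1, each leaving 1 call, and DESeq2 gave no adjusted p for either gene and called 0 members in either direction.

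A further comparison asked how A66 changed these genes in cells that also received palmitate. All 3 transcription factors, the sensors Ddx58 and Dhx58, and 22 effectors from every subgroup were lower with palmitate plus A66 than with palmitate alone, and Samhd1 was higher. The lower members ranged from Eif2ak2, at a log2 fold change of -0.27, to Ddx60, at -2.37. The share of mitochondrial counts was 10.6% and 10.9% in the palmitate libraries and 11.4% and 11.8% in those of palmitate plus A66, and the 10 most abundant genes held 13.0% and 13.4% against 13.9% and 14.8%, and the part of these shares in the result was not tested. In total 27 of 38 tested members were lower, where 1.84% of all genes were lower, and 1 was higher, where 0.973% of all genes were higher. Without Mx1 and Cmpk2, 26 of 36 were lower, with a median log2 fold change of -0.53. Fitted values were below 0 in 35 of 38 members, with a median log2 fold change of -0.61 beside -0.00079 for all genes. Fitted values below 0 made up 50.3% of all genes. Both libraries of palmitate plus A66 were below both palmitate libraries for 33 members (22.4% of all genes) and above them for 1 (21.9%). The lower members numbered 2 of 4 among the sensors, 3 of 3 among the transcription factors, 7 of 8 among the RNA-directed effectors and 3 of 8 among the GTPases and nucleotide-directed and membrane effectors. They numbered 4 of 5 in the ISG15 and ubiquitin system, 1 of 3 among the PARPs and 7 of 7 among the other effectors. The lower count fell to 16 without palmitate replicate 2 and to 17 without palmitate plus A66 replicate 2, and the call of Samhd1 was lost without palmitate replicate 2 or palmitate plus A66 replicate 1. DESeq2 kept 23 of the 28 calls, did not keep that of Lgals3bp, and gave no adjusted p for Mx1, Oas2, Rtp4 and Ddx60. When each of the 8 libraries was left out in turn, 14 of the 28 calls passed every time, those of Ddx58, Dhx58, Ifit1, Ifit3, Oasl2, Eif2ak2, Mx2, Gbp3, Isg15, Usp18, Ifi44, Rtp4, Xaf1 and Ddx60.

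The last of the pairwise comparisons set palmitate plus A66 against A66, to see what palmitate did where A66 was present. Oasl2 was lower, at a log2 fold change of -0.99, and 0 of 38 members were higher with edgeR or with DESeq2, where 1.27% of all genes were lower and 1.46% higher. At an unadjusted p under 0.05, 6 members were lower (7.19% of all genes) and 0 higher (7.36%). The median of the 38 tested members was -0.11, and 29 of them were fitted below 0, against 49.8% of all genes. Groups did not overlap for 15 members that were lower (23.4% of all genes) and for 2 that were higher (23.2%). The call of Oasl2 was lost when either A66 library or either library with palmitate plus A66 was left out. These 4 comparisons share libraries, the untreated ones between the first and the second, the palmitate ones between the second and the third, and so on, and they are not independent of each other.

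The interaction, which tests whether the effect of A66 differed with and without palmitate, passed for 0 of 38 members with edgeR, where 1 gene of 14587 (0.00686%) passed, and it passed for 0 members with DESeq2. At an unadjusted p under 0.05, the interaction was below 0 for 10 members (4.35% of all genes) and above 0 for 1 (3.56%). The smallest of these p-values was that of Ifit3b (interaction -0.91 on the log2 scale, SE 0.24, adjusted p = 0.300), followed by those of Oasl2 (-1.18, SE 0.32, adjusted p = 0.310) and Ifit3 (-0.62, SE 0.17, adjusted p = 0.310). Without the filter on low counts, 3 members passed, Oasl2, Ifit1 and Ifit3b. Fitted interactions were below 0 in 34 of 38 members, or 32 of 36 without Mx1 and Cmpk2, against 49.4% of all genes. Sp100 stood higher with A66 alone and lower with A66 beside palmitate, with no overlap in either case, as 5.47% of all genes ran in opposite directions in these comparisons. Likewise Ifit3b, Oas2, Rtp4, Sp100 and Samhd1 ran in opposite directions, without overlap, with palmitate alone and with palmitate beside A66, as did 5.67% of all genes. The differences in the number of calls between A66 alone and A66 beside palmitate are therefore not shown to be differences in the effect of A66 on these genes.

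Across the 8 libraries, 25 of 38 tested members were lower in each of the 4 libraries with A66 than in each of the 4 without it, where 4.0% of all genes were. For 13 of 38, both palmitate libraries were above the other 6 libraries, where 5.27% of all genes were. Without Mx1 and Cmpk2 these counts were 24 and 11 of 36. The summed level of the 39 members was 836 and 746 CPM in the untreated libraries, 668 and 698 in those of A66, 796 and 822 in those of palmitate, and 661 and 670 where both were given. The untreated libraries also differed between themselves, since replicate 1 was above replicate 2 in 30 of 38 members, against 50% of all genes. With palmitate, replicate 1 was above replicate 2 in 10 of 38 members, against 50.3% of all genes. What set these replicates apart was not tested. The map of members by library shows both features.

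**Figure D1:**
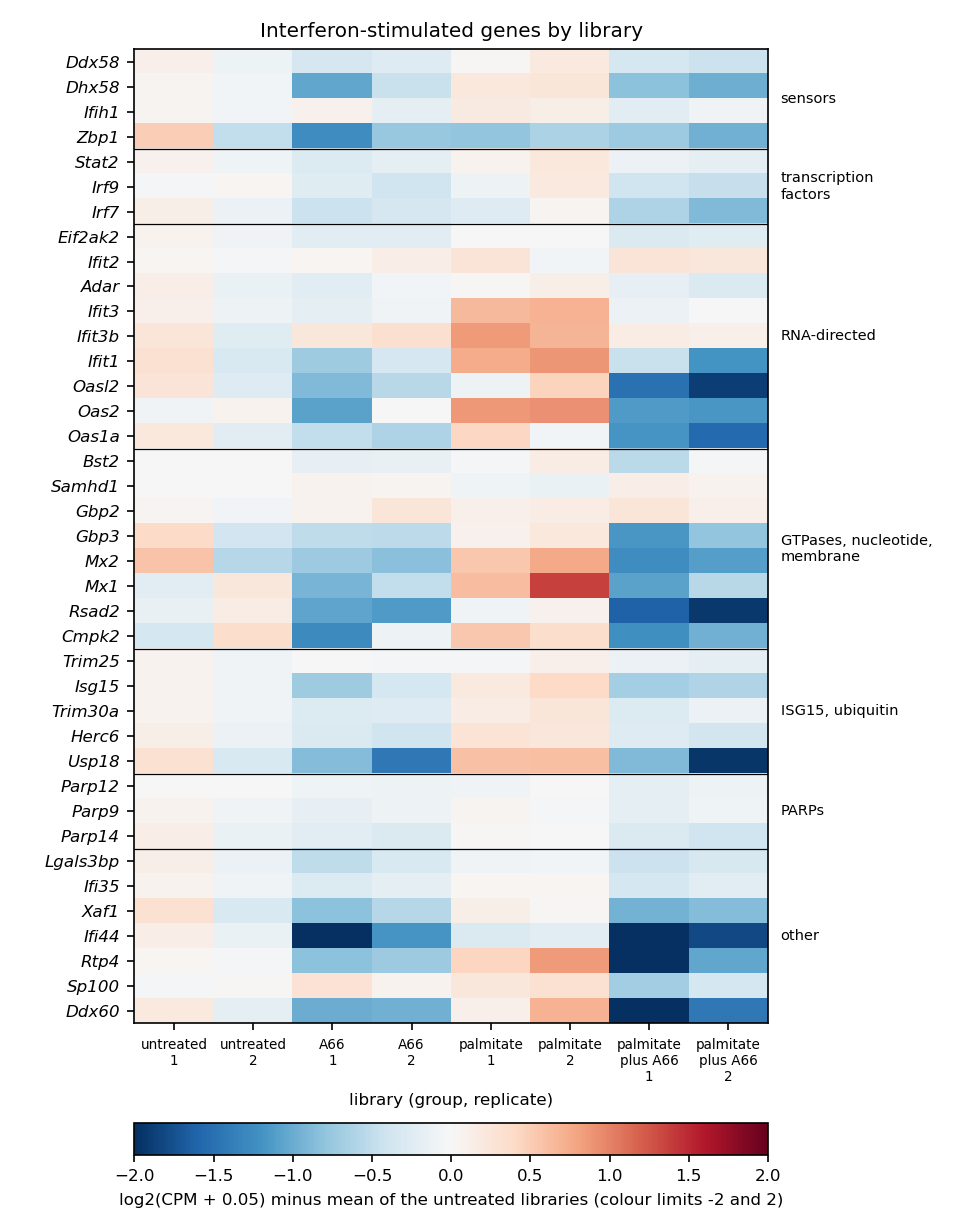
Level of each of the 39 members (rows, grouped by role) in each of the 8 libraries (columns), as log2(CPM + 0.05) minus the mean of the untreated libraries. Blue marks levels below that mean and red levels above it, with colours limited at -2 and 2. The columns of A66 and of palmitate plus A66 are mostly blue, and the strongest red cells of palmitate include those of Ifit1, Ifit3, Ifit3b, Oas2 and Mx1.

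The sensors of foreign nucleic acid were Ddx58 (13524 counts over the 8 libraries), which encodes RIG-I, Ifih1 (1801 counts), which encodes MDA5, Dhx58 (1607 counts), which encodes their regulator LGP2, and Zbp1 (197 counts), which binds nucleic acid in the Z form. Ddx58 (chr4:40203773-40239828, minus strand, GRCm38) stood at 38.9 and 34 CPM in the untreated libraries, 28.8 and 30.5 under A66, 37.1 and 41.5 under palmitate, and 28.6 and 27.1 under both. Each library with A66 was below each library without it. It was 1.23-fold lower with A66 alone (log2 fold change -0.29, SE 0.07, adjusted p = 0.0222) and 1.41-fold lower with A66 beside palmitate (log2 fold change -0.50, SE 0.07, adjusted p = 0.000261), and palmitate itself gave no call (log2 fold change 0.11, SE 0.07, adjusted p = 0.561). The call with A66 alone was lost without untreated replicate 1 or either A66 library. Dhx58 held 4.95 and 4.57 CPM in the untreated libraries, 2.3 and 3.47 under A66, 5.48 and 5.65 under palmitate, and 2.66 and 2.39 under both. The palmitate libraries were the highest and the groups with and without A66 did not overlap. It was 1.65-fold lower with A66 (log2 fold change -0.72, SE 0.18, adjusted p = 0.0382) and 2.2-fold lower with A66 beside palmitate (log2 fold change -1.14, SE 0.17, adjusted p = 0.000441), where the first call was lost without A66 replicate 1.

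Ifih1 and Zbp1 were not called in any comparison. Ifih1 lay between 3.81 and 5.03 CPM in all libraries, with both palmitate libraries the highest, and gave a log2 fold change of -0.29 (SE 0.14, adjusted p = 0.361) with palmitate plus A66 against palmitate. Zbp1 was at 1.08 and 0.518 CPM in the untreated libraries and between 0.290 and 0.466 CPM in the other 6. The untreated libraries were therefore the highest for this gene, which no other sensor showed, but they differed between themselves by more than all the others did. The fitted log2 fold change with A66 alone was -1.13 (SE 0.45, adjusted p = 0.264).

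The transcription factors were Stat2 (15248 counts) and Irf9 (6589 counts), which encode partners in ISGF3, and Irf7 (2895 counts), which drives transcription of interferon genes. Stat2 stood at 41.6 and 36.6 CPM in the untreated libraries, 32.1 and 34.1 under A66, 41.2 and 45.1 under palmitate, and 36 and 33.9 under both. Both libraries of palmitate plus A66 were below both palmitate libraries. That difference was called (log2 fold change -0.30, SE 0.06, adjusted p = 0.00940), and the difference with A66 alone fell short of the threshold (log2 fold change -0.24, SE 0.07, adjusted p = 0.0690). The call was lost without palmitate replicate 2 or palmitate plus A66 replicate 2, as was that of Irf7. For Irf9 the levels were 17.7 and 18.6 CPM in the untreated libraries, 15.3 and 13.7 under A66, 16.8 and 20.7 under palmitate, and 13.7 and 13.1 under both. The 4 libraries with A66 were the lowest, and the second palmitate library was the highest. Irf9 was lower with A66 alone (log2 fold change -0.32, SE 0.08, adjusted p = 0.0471) and with A66 beside palmitate (log2 fold change -0.48, SE 0.10, adjusted p = 0.00550), although the first call was lost without A66 replicate 1 or 2 or untreated replicate 2, and the second without palmitate replicate 2 or palmitate plus A66 replicate 2. Irf7 was at 9.44 and 7.95 CPM in the untreated libraries, 6.43 and 6.86 under A66, 7.23 and 9.03 under palmitate, and 5.63 and 4.7 under both. Its lowest values were those of palmitate plus A66, which were also below those of A66 alone. Irf7 was 1.57-fold lower with A66 beside palmitate (log2 fold change -0.65, SE 0.13, adjusted p = 0.00725), and the differences with A66 alone (log2 fold change -0.38, SE 0.12, adjusted p = 0.121) and with palmitate plus A66 against A66 (log2 fold change -0.36, SE 0.14, adjusted p = 0.188) did not pass.

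**Figure D2:**
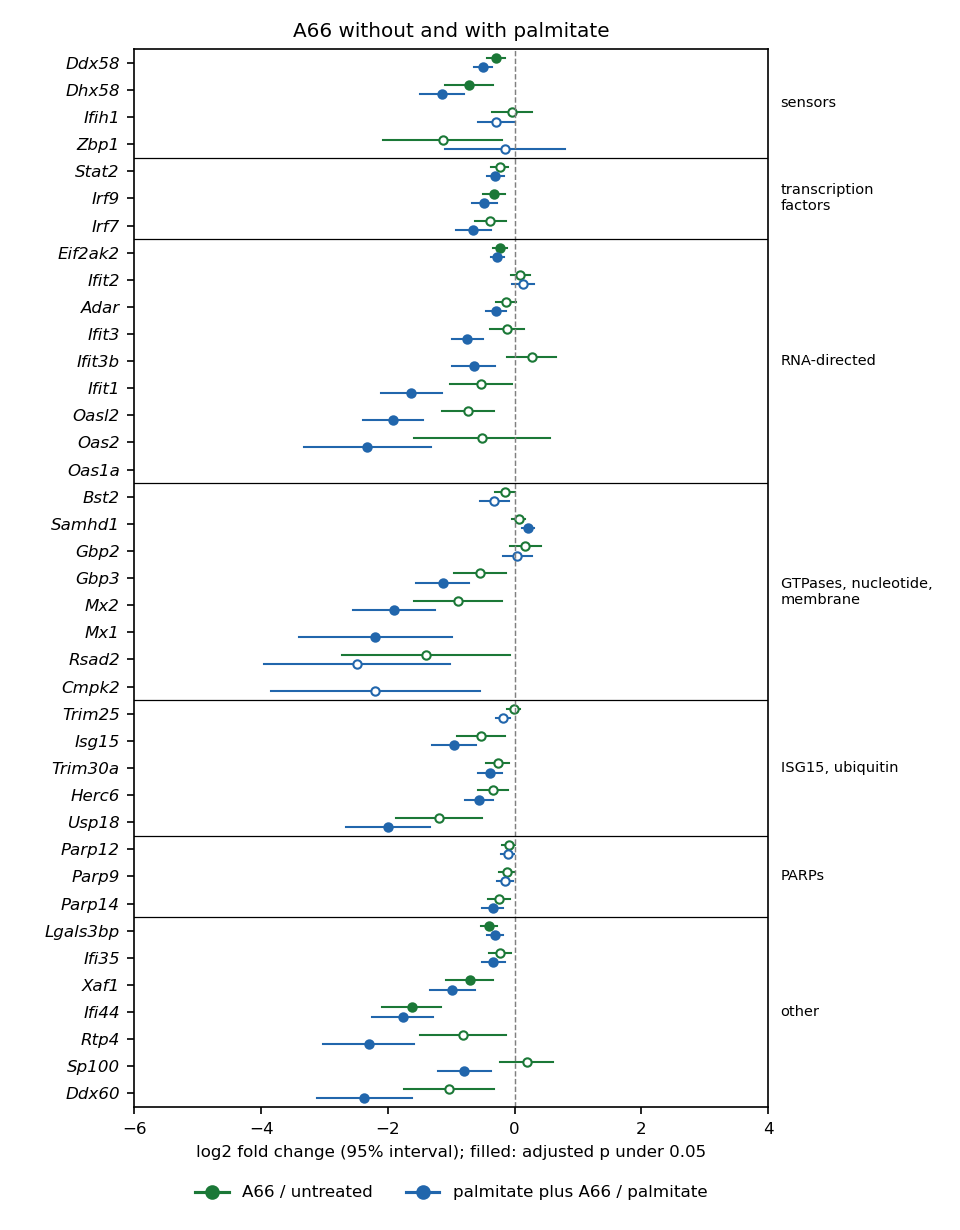
Log2 fold change (horizontal axis, with its 95% interval) of each tested member with A66 against untreated (green) and with palmitate plus A66 against palmitate (blue), with filled points where the adjusted p was under 0.05. Most points lie left of 0, with 7 filled green points and 28 filled blue points, of which Samhd1 is right of 0.

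Among the RNA-directed effectors, the IFIT genes lie side by side on chromosome 19, and their proteins bind viral RNA and hold back its translation. Ifit1 (1070 counts, chr19:34640871-34650009, plus strand) stood at 3.18 and 2.05 CPM in the untreated libraries, 1.54 and 2.02 under A66, 4.32 and 4.76 under palmitate, and 1.85 and 1.08 under both. Both palmitate libraries were above all the others, and the libraries with palmitate plus A66 were among the lowest. Ifit1 was 3.09-fold lower with palmitate plus A66 than with palmitate (log2 fold change -1.63, SE 0.23, adjusted p = 0.000267), and the difference with palmitate alone fell short of the threshold (log2 fold change 0.81, SE 0.21, adjusted p = 0.0718). Ifit3 (2743 counts, chr19:34583531-34588731, plus strand) was at 6.43 and 5.55 CPM in the untreated libraries, 5.27 and 5.69 under A66, 9.42 and 9.75 under palmitate, and 5.48 and 5.94 under both. The 6 libraries outside the palmitate group lay together, and both palmitate libraries lay above them. The gene was 1.61-fold higher with palmitate (log2 fold change 0.68, SE 0.12, adjusted p = 0.00209) and 1.68-fold lower when A66 was added to it (log2 fold change -0.75, SE 0.12, adjusted p = 0.000712), and A66 alone gave no call (log2 fold change -0.12, SE 0.13, adjusted p = 0.779). Ifit3b (1414 counts, chr19:34607970-34613401, plus strand) held 3.27 and 2.31 CPM in the untreated libraries, 3.23 and 3.43 under A66, 5.0 and 4.42 under palmitate, and 3.05 and 2.97 under both. Again both palmitate libraries were above all others, with a wider spread between the untreated libraries than for Ifit3. It was 1.70-fold higher with palmitate (log2 fold change 0.77, SE 0.17, adjusted p = 0.0230) and 1.56-fold lower with A66 beside palmitate (log2 fold change -0.65, SE 0.17, adjusted p = 0.0333), and the second call was lost without either palmitate library or either library of palmitate plus A66. Of the 50-base stretches in Ifit3 transcripts, 51.2% also occur in Ifit3b, so that reads of these genes could not be fully told apart. Ifit2 (8676 counts) differed from its neighbours, at 20.3 and 19.3 CPM in the untreated libraries, 20.3 and 21.8 under A66, 23.8 and 19 under palmitate, and 23.7 and 23.1 under both. Its groups overlapped in 3 of the 4 comparisons and none was called, with a log2 fold change of 0.13 (SE 0.08, adjusted p = 0.522) with palmitate plus A66 against palmitate.

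The oligoadenylate synthetases sense double-stranded RNA and make a messenger that switches on RNase L, and Oasl2 belongs to the OAS-like genes beside them. Oasl2 (1267 counts, chr5:114896936-114912234, plus strand) stood at 4.87 and 3.37 CPM in the untreated libraries, 2.18 and 2.73 under A66, 3.77 and 5.56 under palmitate, and 1.4 and 1.06 under both. The order ran from palmitate plus A66, the lowest, to A66 alone, and then to the groups without A66, which overlapped. Oasl2 was 3.77-fold lower with A66 beside palmitate (log2 fold change -1.92, SE 0.23, adjusted p = 6.13e-05), the smallest adjusted p of any member in any comparison, and 1.99-fold lower with palmitate plus A66 than with A66 (log2 fold change -0.99, SE 0.25, adjusted p = 0.0282). With A66 alone it did not pass (log2 fold change -0.73, SE 0.20, adjusted p = 0.0551). Oas2 held few counts, 178 in all, and its levels were 0.400 and 0.444 CPM in the untreated libraries, 0.174 and 0.426 under A66, 0.813 and 0.839 under palmitate, and 0.165 and 0.161 under both. The palmitate libraries were again the highest. It was lower with A66 beside palmitate (log2 fold change -2.33, SE 0.48, adjusted p = 0.00795), a call lost without palmitate replicate 2 or either library of palmitate plus A66, and one for which DESeq2 gave no adjusted p. Oas1a had 8 and 7 counts in the untreated libraries, 5 and 4 under A66, 13 and 8 under palmitate, and 2 and 1 under both, which was too few for a test, and 57.6% of its 50-base stretches also occur in Oas1g.

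Eif2ak2 (26057 counts), which encodes PKR, the kinase that halts translation in the presence of double-stranded RNA, was the most abundant RNA-directed effector per length, at a mean of 11.3 to 13.7 RPKM (CPM per kilobase of exon) in the 4 groups. Its levels were 73.2 and 66.2 CPM in the untreated libraries, 59.6 and 59.2 under A66, 70.1 and 69.8 under palmitate, and 57.3 and 58.8 under both. The 4 libraries with A66 lay within a narrow band below the 4 without. The difference was small but called both with A66 alone (log2 fold change -0.23, SE 0.05, adjusted p = 0.0207) and with A66 beside palmitate (log2 fold change -0.27, SE 0.05, adjusted p = 0.00304), and palmitate alone gave a log2 fold change of 0.01 (SE 0.05, adjusted p = 0.969). The call with A66 alone was lost without untreated replicate 1 or either A66 library. Adar (14666 counts), which edits adenosine to inosine in double-stranded RNA, was at 41.6 and 34.6 CPM in the untreated libraries, 32.6 and 36.4 under A66, 38.5 and 41.1 under palmitate, and 33.9 and 31.2 under both. Untreated and A66 libraries overlapped. Adar was lower with A66 beside palmitate (log2 fold change -0.29, SE 0.07, adjusted p = 0.0325), a call lost without palmitate replicate 2 or palmitate plus A66 replicate 2. Its exons overlap those of Chrnb2 on the opposite strand over 16.8% of their length.

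**Figure D3:**
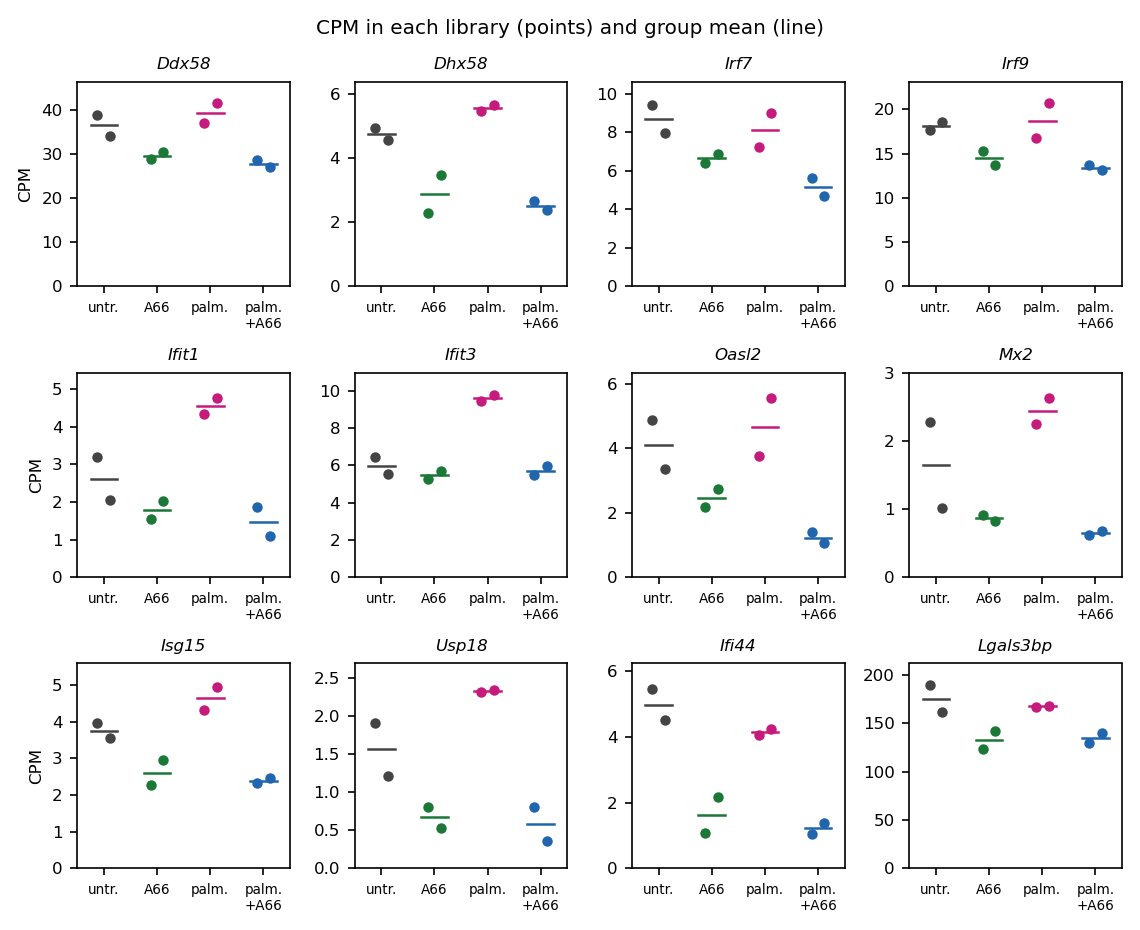
CPM of 12 members in each library (points) with the mean of the 2 libraries of a group (line), on axes that start at 0. Ifit1, Ifit3 and Usp18 are highest in the palmitate libraries, Ifi44 and Lgals3bp are low in all 4 libraries with A66, and Mx2 shows a wide gap between the untreated libraries, at 2.28 and 1.02 CPM.

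The Mx proteins are dynamin-like GTPases that trap viral components. Mx2 (573 counts) stood at 2.28 and 1.02 CPM in the untreated libraries, 0.908 and 0.831 under A66, 2.25 and 2.63 under palmitate, and 0.618 and 0.683 under both. The untreated libraries were far from each other, and both libraries of palmitate plus A66 were below all the rest. Mx2 was 3.73-fold lower with A66 beside palmitate (log2 fold change -1.90, SE 0.31, adjusted p = 0.00111), and its difference with A66 alone did not pass (log2 fold change -0.89, SE 0.33, adjusted p = 0.228). Mx1 (104 counts) was at 0.188 and 0.277 CPM in the untreated libraries, 0.0966 and 0.149 under A66, 0.380 and 0.671 under palmitate, and 0.0824 and 0.141 under both. The lowest of these levels rests on 4 counts. Mx1 passed the filter on low counts with all 8 libraries but not with the 4 that had no palmitate, so that it was tested through its level in the palmitate libraries. It was lower with A66 beside palmitate (log2 fold change -2.20, SE 0.58, adjusted p = 0.0406), a call lost without either A66 library, palmitate replicate 2 or either library of palmitate plus A66. The guanylate-binding proteins attack the membranes around intracellular pathogens. Gbp3 (1449 counts, chr3:142560026-142573209, plus strand) held 5.56 and 3.27 CPM in the untreated libraries, 2.99 and 2.96 under A66, 4.55 and 4.96 under palmitate, and 1.88 and 2.45 under both. The libraries of palmitate plus A66 were the lowest and untreated replicate 1 the highest. Gbp3 was 2.19-fold lower with A66 beside palmitate (log2 fold change -1.13, SE 0.20, adjusted p = 0.00241). Gbp2 (3035 counts) lay between 6.66 and 8.23 CPM in the 8 libraries and was not called in any comparison, with a log2 fold change of 0.04 (95% interval -0.19 to 0.28) with palmitate plus A66 against palmitate. The neighbours Gbp2 and Gbp3 thus had unlike values in that comparison, with no test of the difference between them.

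Rsad2, which encodes viperin, and its neighbour Cmpk2, a mitochondrial nucleotide kinase, act on nucleotides, and both were near the detection floor. Rsad2 held 0.259 and 0.333 CPM in the untreated libraries, 0.116 and 0.107 under A66, 0.277 and 0.317 under palmitate, and 0.0618 and 0.0401 under both. The 4 libraries with A66 were below the 4 without, but no comparison was called, the closest being palmitate plus A66 against palmitate (log2 fold change -2.49, SE 0.71, adjusted p = 0.0606). Cmpk2 was at 0.259 and 0.224 CPM with palmitate and at 0.0412 and 0.0602 with palmitate plus A66, again with no call, and like Mx1 it passed the filter only where the palmitate libraries were included. Samhd1 (23691 counts), which encodes a hydrolase of deoxynucleotides, ran the other way, at 58.7 and 57.5 CPM in the untreated libraries, 60.8 and 60.5 under A66, 54.4 and 52.8 under palmitate, and 63.5 and 61.1 under both. Palmitate libraries were the lowest and libraries of palmitate plus A66 the highest. It was 1.16-fold higher with A66 beside palmitate (log2 fold change 0.22, SE 0.05, adjusted p = 0.0106), and the values with A66 alone (log2 fold change 0.06, SE 0.05, adjusted p = 0.641) and with palmitate alone (log2 fold change -0.11, SE 0.05, adjusted p = 0.304) did not pass. Bst2 (7206 counts), which encodes tetherin, the protein that holds budding virus to the cell surface, was at 18.7 and 19 CPM in the untreated libraries, 16.8 and 17 under A66, 18.3 and 20.8 under palmitate, and 12.9 and 18.4 under both. The libraries of palmitate plus A66 differed widely from each other, and the difference from palmitate was not called (log2 fold change -0.32, SE 0.11, adjusted p = 0.140).

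ISG15 is a ubiquitin-like protein that is joined to other proteins, in the mouse mainly by the ligase HERC6, and taken off by USP18, which also dampens signalling at the receptor. Isg15 (1365 counts, chr4:156199424-156200818, minus strand) stood at 3.96 and 3.55 CPM in the untreated libraries, 2.26 and 2.94 under A66, 4.32 and 4.94 under palmitate, and 2.33 and 2.45 under both. The 4 libraries with A66 were the lowest and both palmitate libraries the highest. It was 1.94-fold lower with A66 beside palmitate (log2 fold change -0.95, SE 0.17, adjusted p = 0.00214), and with A66 alone it did not pass (log2 fold change -0.53, SE 0.18, adjusted p = 0.174). Usp18 (531 counts, chr6:121245906-121270917, plus strand) held 1.91 and 1.22 CPM in the untreated libraries, 0.811 and 0.533 under A66, 2.32 and 2.35 under palmitate, and 0.804 and 0.361 under both. As for Isg15, the 4 libraries with A66 were the lowest and both palmitate libraries the highest, with a wider relative range. The order among the 4 libraries with A66 differed between these genes. Usp18 was 4.01-fold lower with A66 beside palmitate (log2 fold change -2.0, SE 0.32, adjusted p = 0.000918), or by a log2 fold change of -2.68 without palmitate plus A66 replicate 1, and the value with A66 alone did not pass (log2 fold change -1.19, SE 0.33, adjusted p = 0.0654). Herc6 (3562 counts) was at 10.0 and 8.53 CPM in the untreated libraries, 7.51 and 6.97 under A66, 11.2 and 10.9 under palmitate, and 7.75 and 7.15 under both. Both palmitate libraries were above all others, and Herc6 was lower with A66 beside palmitate (log2 fold change -0.56, SE 0.11, adjusted p = 0.00424), a call lost without palmitate plus A66 replicate 2.

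Trim30a and Trim25 belong to the TRIM family of ubiquitin ligases, and the protein of Trim25 acts on RIG-I. Trim30a (5585 counts) stood at 15 and 13.6 CPM in the untreated libraries, 11.8 and 11.9 under A66, 15.8 and 16.9 under palmitate, and 11.7 and 13.2 under both. Trim30a was lower with A66 beside palmitate (log2 fold change -0.39, SE 0.09, adjusted p = 0.0160), with no overlap between those groups, and the call was lost without palmitate replicate 2 or palmitate plus A66 replicate 1. Trim25 (35883 counts) was the most abundant of this system per length, at 14.2 to 16.1 RPKM, and held 95.3 and 86.1 CPM in the untreated libraries, 90.5 and 88.7 under A66, 88.8 and 96.8 under palmitate, and 83.6 and 79.4 under both. Its groups overlapped except where palmitate plus A66 was involved, and its difference from palmitate did not pass (log2 fold change -0.19, SE 0.05, adjusted p = 0.0532). The PARPs are ADP-ribosyltransferases. Parp14 (8702 counts) was at 25.8 and 21.5 CPM in the untreated libraries, 20.5 and 19.2 under A66, 24.1 and 23.3 under palmitate, and 19.4 and 17.9 under both. Parp14 was lower with A66 beside palmitate (log2 fold change -0.34, SE 0.08, adjusted p = 0.0189), a call lost without either palmitate library or without palmitate plus A66 replicate 2. Parp9 (16142 counts) was at 43.8 and 39.3 CPM in the untreated libraries, 37.3 and 38.7 under A66, 43.1 and 41 under palmitate, and 36.3 and 39.2 under both, and Parp12 (19799 counts) at 51 and 51.6 CPM in the untreated libraries, 48.2 and 47.7 under A66, 48.9 and 50.8 under palmitate, and 44.6 and 47.9 under both. For both genes the libraries with A66 were below those without by narrow margins, and no comparison was called. The log2 fold changes with palmitate plus A66 against palmitate were -0.16 for Parp9 (95% interval -0.28 to -0.03) and -0.11 for Parp12 (95% interval -0.21 to -0.0018).

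The other effectors have varied roles, and 7 of 7 were lower with A66 beside palmitate. Ifi44 (1214 counts, chr3:151730922-151749960, minus strand), a cytoplasmic protein induced by interferon, stood at 5.44 and 4.51 CPM in the untreated libraries, 1.08 and 2.15 under A66, 4.06 and 4.23 under palmitate, and 1.05 and 1.39 under both. All 4 libraries with A66 were below the 4 without, and A66 replicate 1 was below replicate 2 by a wide margin. Ifi44 was 3.09-fold lower with A66 (log2 fold change -1.63, SE 0.22, adjusted p = 0.000209) and 3.4-fold lower with A66 beside palmitate (log2 fold change -1.76, SE 0.23, adjusted p = 0.000169), while palmitate gave no call (log2 fold change -0.26, SE 0.20, adjusted p = 0.661). Lgals3bp (61830 counts, chr11:118392751-118402092, minus strand), a secreted glycoprotein that binds galectins, was the most abundant member, at 46.7 to 61.7 RPKM, and held 189 and 162 CPM in the untreated libraries, 124 and 142 under A66, 167 and 168 under palmitate, and 130 and 140 under both. No library with A66 reached the level of one without it. It was 1.32-fold lower with A66 (log2 fold change -0.40, SE 0.06, adjusted p = 0.000708) and 1.24-fold lower with A66 beside palmitate (log2 fold change -0.31, SE 0.06, adjusted p = 0.00594), where the second call was lost without palmitate plus A66 replicate 1 and both calls were lost with DESeq2. Xaf1 (1744 counts), linked to apoptosis, was at 6.59 and 4.33 CPM in the untreated libraries, 3.01 and 3.6 under A66, 5.81 and 5.41 under palmitate, and 2.76 and 2.91 under both. It was lower with A66 (log2 fold change -0.71, SE 0.18, adjusted p = 0.0407), a call lost without untreated replicate 1 or either A66 library, and with A66 beside palmitate (log2 fold change -0.98, SE 0.17, adjusted p = 0.00214).

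Rtp4 (421 counts), which encodes a chaperone of membrane receptors, stood at 1.2 and 1.13 CPM in the untreated libraries, 0.637 and 0.682 under A66, 1.59 and 2.14 under palmitate, and 0.206 and 0.542 under both. The palmitate libraries were the highest and those of palmitate plus A66 the lowest, but the latter differed from each other by more than the former did in relative terms. Rtp4 was 4.94-fold lower with A66 beside palmitate (log2 fold change -2.30, SE 0.35, adjusted p = 0.000514), and the log2 fold change was -3.16 without palmitate plus A66 replicate 2. Ddx60 (374 counts, chr8:61928087-62038244, plus strand), a helicase related to the sensors, held 1.34 and 1.02 CPM in the untreated libraries, 0.560 and 0.575 under A66, 1.26 and 1.92 under palmitate, and 0.206 and 0.401 under both. Both libraries of palmitate plus A66 were the lowest, and those of the untreated and palmitate groups overlapped. It was 5.17-fold lower with A66 beside palmitate (log2 fold change -2.37, SE 0.36, adjusted p = 0.000591). Sp100 (869 counts), a protein of nuclear bodies, was at 2.07 and 2.15 CPM in the untreated libraries, 2.59 and 2.22 under A66, 2.47 and 2.61 under palmitate, and 1.28 and 1.65 under both. It was the only called member of this subgroup that stood higher, without overlap, with A66 than in untreated cells, a difference that was not called (log2 fold change 0.19, SE 0.20, adjusted p = 0.772), and it was lower with A66 beside palmitate (log2 fold change -0.79, SE 0.20, adjusted p = 0.0320), a call lost without palmitate replicate 1 or 2 or either library of palmitate plus A66. Ifi35 (6524 counts) was at 18.3 and 16.6 CPM in the untreated libraries, 14.4 and 15.2 under A66, 17.9 and 18 under palmitate, and 13.6 and 14.8 under both. Ifi35 was lower with A66 beside palmitate (log2 fold change -0.33, SE 0.08, adjusted p = 0.0309), a call lost without either palmitate library or either library of palmitate plus A66, and an antisense gene covers 16.8% of its exon bases.

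**Figure D4:**
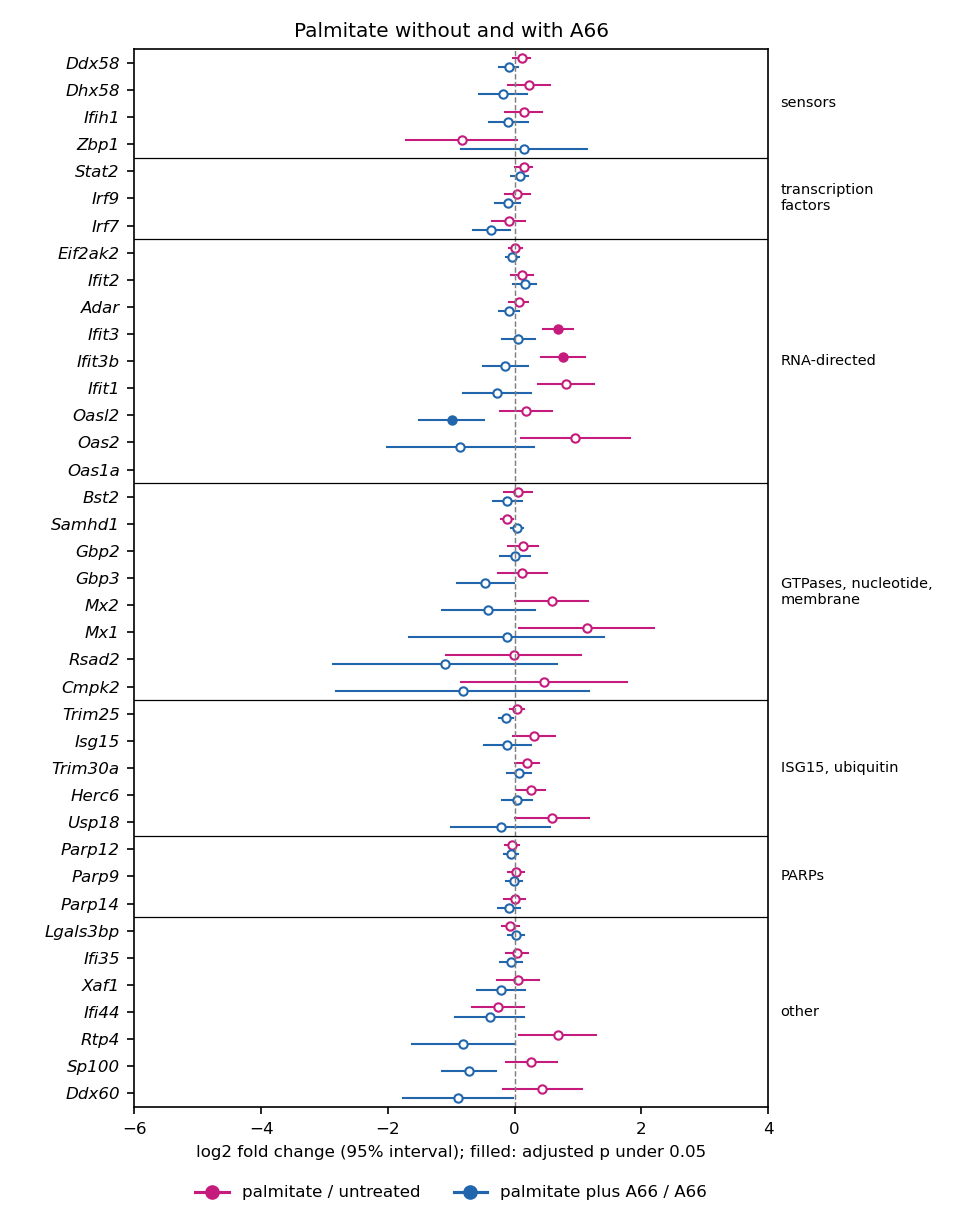
Log2 fold change (horizontal axis, with its 95% interval) of each tested member with palmitate against untreated (pink) and with palmitate plus A66 against A66 (blue), with filled points where the adjusted p was under 0.05. The filled pink points are Ifit3 and Ifit3b, right of 0, and the filled blue point is Oasl2, left of 0.

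Levels can be compared between genes per length. In untreated cells the mean level was 61.7 RPKM for Lgals3bp, 20.9 for Bst2, 15.8 for Trim25, 13.6 for Eif2ak2 and 12.8 for Parp12 at the upper end, and 0.0843 for Oas1a, 0.0683 for Rsad2, 0.0615 for Mx1 and 0.0408 for Cmpk2 at the lower end. Of these abundant members Lgals3bp and Eif2ak2 were called, at 1.32-fold lower or less, and Bst2, Trim25 and Parp12 were not called in any comparison. The members with the widest fitted differences, such as Ddx60, Rtp4, Oas2 and Mx1, were all at less than 1 RPKM in every group.

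**Figure D5:**
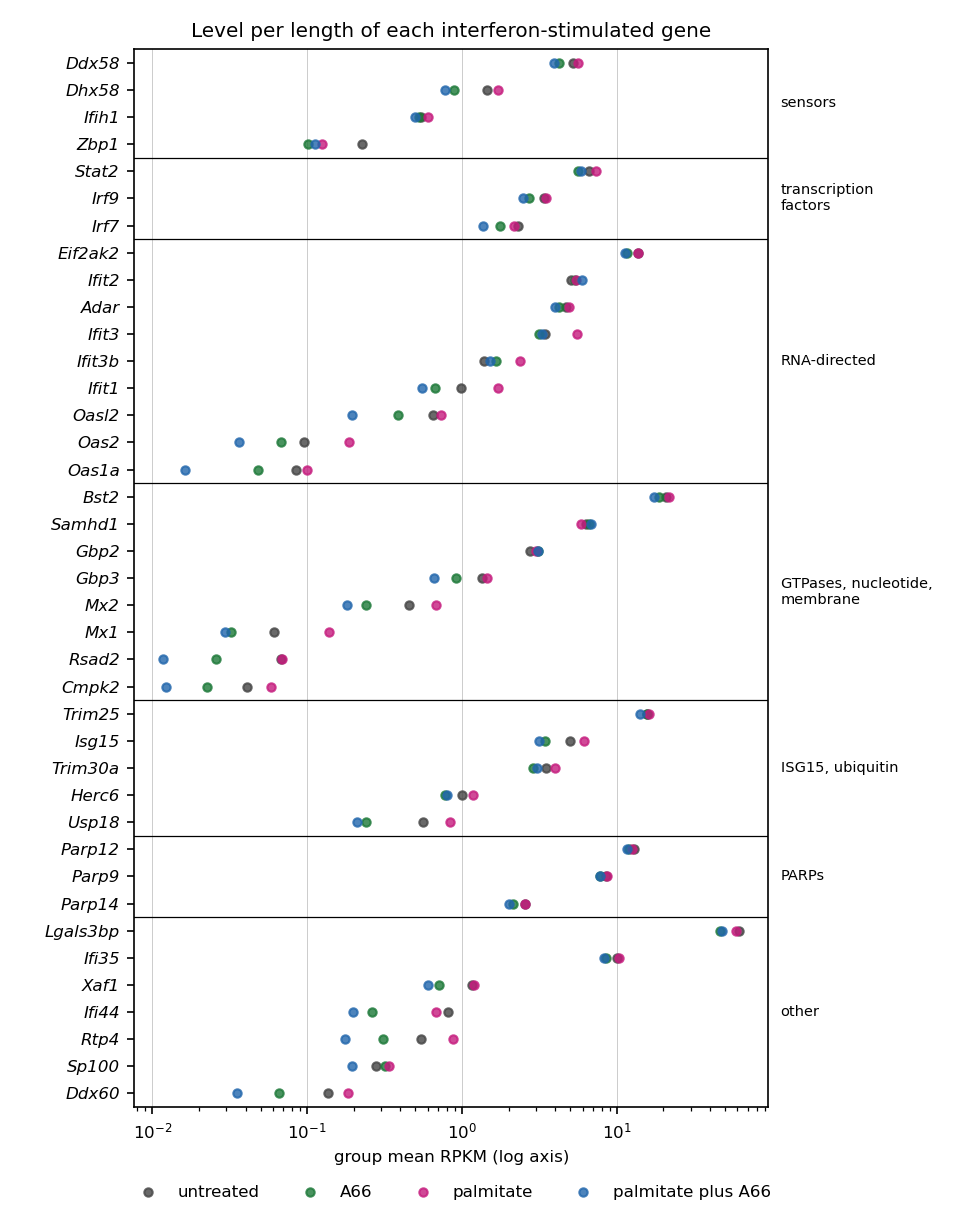
Mean RPKM of each member in each of the 4 groups (points, log axis), with members grouped by role and ordered by level within a role. The abundant members show groups close together, and the spread between groups is wider among members below 1 RPKM.

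The rest of the interferon pathway was followed as a list of 52 further genes, of which 35 could be tested. None of the 10 ligand genes had enough counts for a test, and Ifnb1 was at 0 counts in all 8 libraries, as were Ifna1, Ifna2, Ifna4, Ifna5, Ifnk, Ifnl2 and Ifnl3. The receptor gene Ifnar1 stood at 110 to 118 CPM and Ifnar2 at 20.8 to 23.1 CPM across all libraries, with log2 fold changes with A66 of 0.03 (SE 0.04, adjusted p = 0.846) and 0.01 (SE 0.07, adjusted p = 0.981). Irf3, which is activated downstream of the sensors, and Irf1, a further interferon-responsive factor, were not called in any comparison, at -0.02 (SE 0.06, adjusted p = 0.940) and -0.07 (SE 0.06, adjusted p = 0.716) with A66.

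With A66 alone, 1 of 35 tested pathway genes was lower (0.77% of all genes), the type II receptor gene Ifngr1 (log2 fold change -0.18, SE 0.04, adjusted p = 0.0367), and 1 was higher (1.07%), the lipopolysaccharide receptor gene Tlr4 (0.19, SE 0.04, adjusted p = 0.0229). With A66 beside palmitate, edgeR called 0 lower, where 2 had an unadjusted p under 0.05 (7.61% of all genes), and 2 higher (0.973% of all genes), Tlr4 (0.23, SE 0.04, adjusted p = 0.00257) and the kinase gene Jak2 (0.18, SE 0.04, adjusted p = 0.0204). With palmitate, 0 of 35 were called by edgeR both without A66, where 1 was higher (6.42% of all genes) and 3 lower (5.6%) at an unadjusted p under 0.05, and beside A66, where 3 were higher (7.36%) and 1 lower (7.19%). Their median log2 fold change was -0.01 with A66 and 0.02 with A66 beside palmitate, beside -0.31 and -0.61 for the members.

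Markers of cell identity moved with some of these comparisons. With palmitate against untreated cells, Col1a1, a fibroblast collagen gene, was higher (log2 fold change 0.25, SE 0.04, adjusted p = 0.00331). With palmitate plus A66 against palmitate, the adipocyte markers Cidec (log2 fold change -0.23), Retn (-0.32) and Slc2a4 (-0.23) and Col1a1 (-0.33) were lower, 3 of 9 and 1 of 8 in their lists, where 1.84% of all genes were lower. The summed level of the adipocyte list was 8216 to 8974 CPM with palmitate and 7919 to 8685 with palmitate plus A66. The preadipocyte or fibroblast list summed to 4348 to 4670 CPM with palmitate and, without overlap, to 3871 to 4121 with palmitate plus A66. It summed to 4196 to 4435 CPM in untreated cells and 4265 to 4371 with A66. None of these markers was called with A66 alone, where the summed level was 8915 to 9200 CPM in untreated cells and 9208 to 9746 with A66. The macrophage list summed to 5.82 to 6.70 CPM in untreated cells, 5.95 to 6.61 with A66, 7.53 to 7.95 with palmitate and 7.79 to 8.79 with palmitate plus A66, and these ranges overlapped between untreated cells and A66 and between palmitate and palmitate plus A66. With palmitate plus A66 against A66, 7 of 9 adipocyte markers were lower (1.27% of all genes). The macrophage marker Cd68, 1 of 8 in its list, was higher (log2 fold change 0.91, SE 0.16, adjusted p = 0.00140), where 1.46% of all genes were higher. Lyz2 of that list stood lower without overlap but was not called (-0.32, SE 0.17, adjusted p = 0.422). With palmitate plus A66 against palmitate, Cd68 (0.47) and Lyz2 (-0.50) also ran apart without overlap, and neither was called. Csf1r was not called in these comparisons. The part of these markers in the differences of the members was not tested.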

How the data were processed

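Messenger RNA of 8 libraries was sequenced, and per the submitters' notes and methods the reads were aligned with TopHat (TopHat2 2.0.11) on the GRCm38 build. The values that the authors deposited are unnormalized HTSeq counts, by Ensembl gene and library. The kit marks strand, but the strand setting of the counting and its annotation are not given in the sources used here, so genes with overlapping exons could share reads. The same file holds the output of the authors' DESeq2 comparison (fold changes with their errors, p-values and mean counts), which was not used.

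Samples were grouped by the treatment in their labels. Symbols and exon lengths came from GENCODE M21 (42462 of 43629 genes matched). In R 4.3.3, edgeR 4.0.16 was run with TMM normalization, the filterByExpr filter (minimum count 10), quasi-likelihood tests and Benjamini-Hochberg adjustment over all genes tested, with a threshold of 0.05. A66 was compared with untreated cells in their 4 libraries, and the other comparisons and the interaction used all 8. RPKM is CPM per kilobase of exon. No exact test on 2 against 2 libraries was made. On simulated counts for A66 against untreated (14158 genes), 62% of genes changed by 0.5 and 80% of those changed by 1 on the log2 scale were called, with 0 false among 142 calls. For palmitate plus A66 against palmitate (14587 genes), 68% and 82% were called, with 6 false among 156 calls.

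The members and the gene lists were chosen with earlier results of these data known. Values in every library are given for each member past the threshold in any comparison and for the 2 members of each class with the highest RPKM, and pathway genes are named where called, with Ifnb1, Ifnar1, Ifnar2, Irf3 and Irf1 always. Of the pathway and marker lists, 1 gene each is not reported here and was left out of their counts. Alternatives were RLE or library-size scaling, no filter, 10 counts in every library, a replicate block, DESeq2 1.42.0, other libraries in the fit, and leaving out each library. The labels and methods name no molecular identifiers. Promoters came from RefSeq (GRCm38.p6). Dhx58, Zbp1, Oas2, Mx1, Mx2, Usp18, Parp9, Parp14 and Rtp4 had no entry.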

Additional observations from a re-analysis of the deposited data

How the results depend on the processing

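No median and no count of members changed direction under any alternative, but fitted values of single uncalled members did. For palmitate against untreated, 10 of 36 uncalled members changed sign without untreated replicate 2, and 6 did without palmitate replicate 1. For palmitate plus A66 against A66, 7 of 37 did so without A66 replicate 2. For A66 against untreated, 7 members were lower, but 12 were without the filter on low counts and 2 with DESeq2, which gave no adjusted p for Dhx58, Ifi44 and Xaf1 and left Irf9 and Lgals3bp short of the threshold, and leaving out each library gave 2 to 16 and a median log2 fold change from -0.38 (without untreated replicate 2) to -0.20 (without untreated replicate 1). For palmitate against untreated, DESeq2 called 0 higher, since it gave no adjusted p for Ifit3 and Ifit3b, and leaving out each library gave 1 to 3 and a median from 0.072 (without untreated replicate 2) to 0.21 (without untreated replicate 1). For palmitate plus A66 against palmitate, the lower count ran from 16 to 28 and the higher count from 0 to 1 when each library was left out, 22 were lower with DESeq2, and the median was -0.49 over members with at least 10 counts in every library. Adding or dropping the other libraries in the fit ended the calls of Irf9 (A66) and Sp100 (A66 beside palmitate). For palmitate plus A66 against A66, 2 members were lower without the filter, and 0 to 1 when each library was left out, with a median from -0.14 (without palmitate plus A66 replicate 1) to -0.060 (without A66 replicate 2), beside -0.11. For the interaction, 3 members passed without the filter, and the median ran from -0.33 to -0.18 when each library was left out. Where a library was left out, the lone replicate of its group was assumed to vary like the others. The causes were not tested. The replicate numbers are not shown to pair the samples, since deviations of same-numbered libraries correlated from -0.20 to 0.21, and with the number as a block the counts were 8 lower (A66), 2 higher (palmitate), 28 lower and 1 higher (A66 beside palmitate), 1 lower (palmitate beside A66) and 0 (interaction). Members under about 100 counts, such as Oas1a, Cmpk2 and Rsad2, are limited by depth.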
